A study of Mus musculus with 20 samples.

Results

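The comparison described here sets mice given HDL with an inhibitor of miR-92a-3p (HDL + LNA92a) against mice given HDL alone. Its members were chosen by the treatment label of each library and comprise 8 of the 20 aortic endothelium libraries of the series, 4 in each group. In HDL + LNA92a these are animals 5, 12, 17 and 18, and in HDL they are animals 3, 4, 11 and 23. LNA92a is a locked nucleic acid, a chemically stiffened antisense oligonucleotide that binds a microRNA. All mice were female Apoe-/- animals of the strain B6.129P2-Apoetm1Unc/J on chow with 5/6 nephrectomy, a surgical model of chronic kidney disease, and the controls carry that genotype and surgery too. They were operated on at the age of 9 weeks and injected once, behind the eye (retro-orbital), 7 weeks after surgery. The HDL + LNA92a mice received 20 mg/kg of LNA92a with 4 mg of HDL and the HDL mice received 4 mg of HDL. Total RNA was taken from the sheared endothelium of the aorta 1 week after injection. Neither group received a control oligonucleotide, so any effect of an oligonucleotide as such cannot be told apart from one of the LNA92a sequence. The other groups received saline, HDL + LNA489 (an inhibitor of miR-489-3p) or HDL with both inhibitors, 4 mice each.

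A microRNA guides an Argonaute complex to messenger RNAs, mostly through its seed near the 5′ end, and lowers their translation and stability. An inhibitor that occupies the microRNA is therefore read out through the level of messages that carry seed matches in their 3′ UTR. In endothelium, miR-92a-3p is known for repressing the flow-responsive transcription factors Klf2 and Klf4 and the integrin subunit Itga5, and it comes from the Mir17hg cluster and its paralogue on the X chromosome.

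The mature sequences of the seed family are shown because all of them share the seed and so match the same sites. They are RefSeq sequences on GRCm38.p6, written 5′ to 3′, with the seed (bases 2 to 8) in capitals. The miR-92a-3p sequence is encoded at chr14:115044476-115044496 (plus strand) in Mir92-1 and at chrX:52741854-52741874 (minus strand) in Mir92-2.
miR-92a-3p: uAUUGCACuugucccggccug
miR-92b-3p: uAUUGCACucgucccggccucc
miR-25-3p: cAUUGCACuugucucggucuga
miR-32-5p: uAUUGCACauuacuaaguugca
miR-363-3p: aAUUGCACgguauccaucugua
miR-367-3p: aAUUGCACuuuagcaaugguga

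The matching sites of the endothelial targets, and those of the 1 reported target that stood apart below, are shown next. They were read from the 3′ UTR of the longest coding transcript in GENCODE M21 (GRCm38), with coordinates of the 30 bases printed, and capitals mark the 8mer GTGCAATA, the reverse complement of the seed followed by an A. The Klf2 site starts at base 214 of a 3′ UTR of 737 bases (chr8:72321122-72321151, plus strand) and the Klf4 site at base 751 of 982 (chr4:55527356-55527385, minus strand). The Itga5 site starts at base 947 of 983 (chr15:103344304-103344333, minus strand) and the Itgav 8mer at base 3080 of 3581 (chr2:83806404-83806433, plus strand). Itgav also holds GTGCAAT, the match without the final A, at base 1429, which is not printed. Map2k4 holds 2 sites, starting at bases 105 and 503 of 2448 (chr11:65690568-65690597 and chr11:65690170-65690199, minus strand).
Klf2: ttttcaaaatgGTGCAATAattgacttatt
Klf4: tggtttcagatGTGCAATAatttgtacaat
Itga5: ctctgttgcaaGTGCAATAaaccccaccca
Itgav: attgttcttaaGTGCAATAtaacaatgtaa
Map2k4, first site: ccagacaccatGTGCAATAagactggtgtt
Map2k4, second site: ttcttcaccaaGTGCAATAgatttcctcat

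Levels are given as FPKM, that is, fragments scaled to gene length and to the assigned reads of the library, and differences as HDL + LNA92a minus HDL on the deposited variance-stabilized log2 scale, with the SE of the fit. That scale compresses differences of weakly expressed genes. Values are listed for HDL + LNA92a animals 5, 12, 17 and 18 and for HDL animals 3, 4, 11 and 23, in that order. Assigned reads numbered 11.6 to 17.8 M (mega) in HDL + LNA92a and 12.4 to 15.9 M in HDL. Reads of Rn18s-rs5, a gene of 18S ribosomal RNA, made up 16.5% ± 7.16 of the total in HDL + LNA92a and 7.07% ± 2.71 in HDL (SD, n = 4 each; 2-sided exact permutation p = 0.0857, 0.343 after adjustment over 4 library measures, the smallest possible being 0.0286). FPKM divides by all assigned reads, so other genes have lower FPKM in libraries rich in 18S. The median difference over all genes was -0.06 on the variance-stabilized scale and -0.47 on log2(FPKM + 0.1). Apoe, the inactivated gene of the strain, had 2.86, 2.31, 4.59 and 11.3 FPKM in HDL + LNA92a, against 11.9, 7.20, 4.36 and 22.6 in HDL, and none of the libraries used here has an intact gene to set beside these.

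No gene passed a Benjamini-Hochberg adjusted p of 0.05 with limma among 16848 genes tested. The smallest adjusted p was 0.867, and 595 genes (3.53%) had an unadjusted p under 0.05, of which 251 (1.49%) were higher in HDL + LNA92a and 344 (2.04%) were lower. On the variance-stabilized scale the groups did not overlap in 374 genes (2.22%), with 144 (0.855%) higher and 230 (1.37%) lower in HDL + LNA92a. The count called was 0 under each alternative tried too. The count of 595 was not stable, since it came to 2860 without HDL 4, 325 without HDL 11 and 389 without HDL + LNA92a 5. Library HDL 4 had the highest fat gene levels of the HDL libraries, which are described below. Every gene named in the following is therefore given as a value that missed the adjusted threshold, and a p with no other word is an unadjusted limma p.

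Cardiac muscle genes made up most of the leading higher genes. Of the 12 genes with the smallest p and a mean of at least 1 FPKM, 8 belong to the lists of cardiac genes. That mean was taken over the 8 libraries compared, so a gene high in HDL + LNA92a alone could pass by it. Tnni3, the inhibitory troponin subunit of heart muscle (chr7:4518305-4524229, overlapping Dnaaf3 on the same strand), had 33.8, 38.1, 6.72 and 98.7 FPKM in HDL + LNA92a, against 1.18, 0.152, 2.62 and 4.55 in HDL (difference 4.01 ± 0.98, limma adjusted p = 0.867). All 4 HDL + LNA92a libraries lay above all 4 HDL libraries, with animal 18 highest. Myh6, the alpha myosin heavy chain of the heart (chr14:54941921-54966927), had 23.4, 28.1, 10.3 and 83.5 FPKM in HDL + LNA92a, against 0.523, 0.228, 0.948 and 4.79 in HDL (4.78 ± 1.23, limma adjusted p = 0.867). Actc1, cardiac actin, had 44.0, 82.7, 18.0 and 194 FPKM in HDL + LNA92a, against 0.300, 0.932, 2.67 and 6.79 in HDL (4.64 ± 1.26). In each gene the groups stood apart with no overlap, animal 17 was the lowest of the HDL + LNA92a libraries, and animal 23 the highest of the HDL libraries.

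The lists of cardiac genes hold 58 genes, of which 57 were in the files and 48 passed the filter of a mean of 0.5 FPKM over the 20 libraries. The filter uses the same libraries, so a gene high in HDL + LNA92a alone could pass by it. Of the 48, 44 were higher in HDL + LNA92a and 4 lower, with a median difference of 1.99 beside -0.06 over all genes tested. At an unadjusted p under 0.05, 32 were higher and 0 lower, where the share of all genes higher at that level is 1.49%. On the variance-stabilized scale the groups did not overlap in 27 of the 48, against 0.855% of all genes. These lists were chosen with earlier results of the same libraries known. Their members are not all particular to the heart, and Cox7a1 is also in the brown fat list. HDL + LNA489 14, with 1787 FPKM of summed skeletal muscle genes, had 128 FPKM of Mb, 66.9 of Tcap and 58.3 of Ckm, but 0.766 of Myh6. Fat gene lists were higher in HDL + LNA92a too (medians of 1.82 and 1.98, described below), as was the share of 18S reads given above. The part of 18S reads in the cardiac result was not tested, and that of fat and endothelial RNA was examined through the covariate fit given with the mitochondrial genes.

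Among thick filament and cross-bridge genes, 8 of 11 were higher at p under 0.05 (list median 2.27). Their summed level was 177, 180, 50.1 and 488 FPKM in HDL + LNA92a, against 6.93, 4.28, 16.8 and 34.9 in HDL. Myl4, an atrial light chain, had 10.8, 12.3, 3.86 and 39.0 FPKM in HDL + LNA92a, against 0.367, 0.041, 1.63 and 2.24 in HDL (3.82 ± 1.03). Myl7, the regulatory light chain of the atria, had 129, 119, 29.8 and 307 FPKM in HDL + LNA92a, against 0, 1.17, 8.36 and 22.4 in HDL (4.32 ± 1.21). Both genes of the atrial myosin were thus higher in every HDL + LNA92a library than in any HDL library. Mybphl, a myosin-binding protein of the atria, ran the same way at 6.14, 8.99, 1.62 and 24.8 FPKM in HDL + LNA92a, against 0.063, 0, 0.741 and 1.55 in HDL (2.71 ± 0.78), while Mybpc3, its larger relative of all heart chambers, overlapped in FPKM through HDL + LNA92a 17 (2.27 ± 0.67). Myom1 of the M-line had 2.43, 3.98, 2.31 and 9.96 FPKM in HDL + LNA92a, against 3.01, 1.54, 1.62 and 1.36 in HDL (1.34 ± 0.46). Its groups overlapped in FPKM through HDL 3 but not on the variance-stabilized scale.

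Other myosin genes of ventricle and slow muscle were weakly expressed in most libraries. Myl2, the ventricular regulatory light chain, had 0.397, 0.750, 0 and 0.044 FPKM in HDL + LNA92a, against 0.747, 0.419, 0.381 and 0 in HDL (-0.10 ± 0.68). Myh7, the beta myosin heavy chain of fetal heart and slow muscle, had 0, 0.262, 0.086 and 0.361 FPKM in HDL + LNA92a, against 0.622, 0.329, 0.197 and 0.524 in HDL (-0.76 ± 0.86). The groups overlapped in both, and neither gene reached 1 FPKM in any of the 8 libraries. Myl3, a light chain of ventricle and slow muscle, had 1.18, 1.62, 0.565 and 8.59 FPKM in HDL + LNA92a, against 0.515, 0.031, 0.231 and 0.112 in HDL (1.79 ± 0.75). All 4 HDL + LNA92a libraries lay above the HDL libraries in Myl3, animal 18 being highest.

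Of the thin filament genes, 7 of 8 were higher at p under 0.05 (median 2.68). Besides Tnni3 and Actc1 they included Tnnt2, the troponin that anchors the complex to tropomyosin, with 10.1, 13.2, 3.37 and 37.4 FPKM in HDL + LNA92a, against 0.073, 0.219, 1.00 and 1.96 in HDL (4.24 ± 1.14). Tnnc1, the calcium-binding subunit, had 7.44, 7.73, 2.93 and 21.9 FPKM in HDL + LNA92a, against 0.078, 1.33, 1.69 and 1.69 in HDL (2.13 ± 0.68). The groups were separate in both. Lmod2, which lengthens thin filaments, differed by 2.93 ± 0.89 and Tcap, the titin cap, by 2.43 ± 0.91. Tpm1, a tropomyosin also made by smooth muscle, overlapped at 17, 34.2, 16 and 59.7 FPKM in HDL + LNA92a, against 25.6, 9.78, 13.7 and 25 in HDL (1.08 ± 0.38).

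Of the calcium cycling genes, 9 of 11 were higher at p under 0.05 (median 2.00). Hrc, a calcium-binding protein inside the sarcoplasmic reticulum, had 2.25, 3.27, 1.93 and 5.87 FPKM in HDL + LNA92a, against 1.01, 0, 0 and 0.089 in HDL (2.66 ± 0.64). Pln, the phospholamban that restrains the calcium pump, had 12.9, 14.8, 7.12 and 42.8 FPKM in HDL + LNA92a, against 3.85, 0.811, 2.37 and 4.18 in HDL (2.68 ± 0.66). Sln, sarcolipin, the atrial counterpart of phospholamban, had 39.1, 35.6, 7.01 and 109 FPKM in HDL + LNA92a, against 0.307, 0.334, 4.05 and 4.69 in HDL (3.82 ± 1.14). In all 3 genes the groups were separate. The pump itself, Atp2a2, which other cells also make, overlapped at 28.4, 51.8, 22.2 and 52.2 FPKM in HDL + LNA92a, against 28.5, 31.9, 28.9 and 32.8 in HDL (0.67 ± 0.29). The release channel Ryr2 and the store protein Casq2 differed by 2.00 ± 0.74 and 2.04 ± 0.66.

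Among stress, hormone and transcription genes, 2 of 6 tested were higher at p under 0.05. They were Ankrd1, a stress-induced ankyrin repeat protein (15.6, 13.5, 6.12 and 52.6 FPKM in HDL + LNA92a, against 0.459, 0.605, 0.498 and 1.34 in HDL; 3.62 ± 0.90), and Csrp3, the muscle LIM protein (5.32, 4.76, 2.29 and 17.5 FPKM in HDL + LNA92a, against 0.182, 0.141, 0.202 and 0.314 in HDL; 3.21 ± 0.83). Both were separate between the groups. Nppa, the atrial natriuretic peptide, had 1.49, 0.650, 0 and 17.5 FPKM in HDL + LNA92a, against 0.374, 0, 0 and 0.176 in HDL (1.37 ± 0.68), so that the level of animal 18 stood alone. The transcription factors Gata4 (1.02 ± 0.57) and Tbx5 (1.52 ± 0.77) overlapped between the groups and missed p 0.05. Nppb, Nkx2-5, Hand2 and Xirp1 did not pass the filter.

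Of 9 genes of cardiac energy metabolism, 6 were higher at p under 0.05 (median 1.97). Mb, myoglobin, had 39.4, 54.7, 10.3 and 127 FPKM in HDL + LNA92a, against 4.07, 6.22, 5.94 and 9.93 in HDL (2.80 ± 1.04). Ckmt2, the mitochondrial creatine kinase of muscle, had 5.56, 8.93, 4.44 and 25.4 FPKM in HDL + LNA92a, against 1.42, 1.52, 1.23 and 2.41 in HDL (2.10 ± 0.80). Both were separate between the groups. The heat shock protein Hspb7 differed by 2.22 ± 0.81 without overlap, and Cox6a2, a muscle subunit of cytochrome oxidase, by 1.97 ± 0.77 with HDL + LNA92a 17 below HDL 23 in FPKM. Fabp3, a fatty acid carrier that brown fat also uses, overlapped through HDL 4 (56.3, 66.3, 22.5 and 50.6 FPKM in HDL + LNA92a, against 4.92, 54.1, 11.1 and 10.4 in HDL; 1.90 ± 1.09). None of the 3 tested genes of conduction and coupling reached p 0.05. With the endothelial and fat list means of each library as covariates, 0 of the 9 energy genes were higher at p under 0.05 (median 0.96), and 2 were without HDL 4 and HDL + LNA92a 5 and 12, the libraries richest in fat genes. In the covariate fit 7 of 11 thick filament, 6 of 8 thin filament, 5 of 11 calcium cycling and 2 of 6 stress, hormone and transcription genes were higher at that level.

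**Figure D1:**
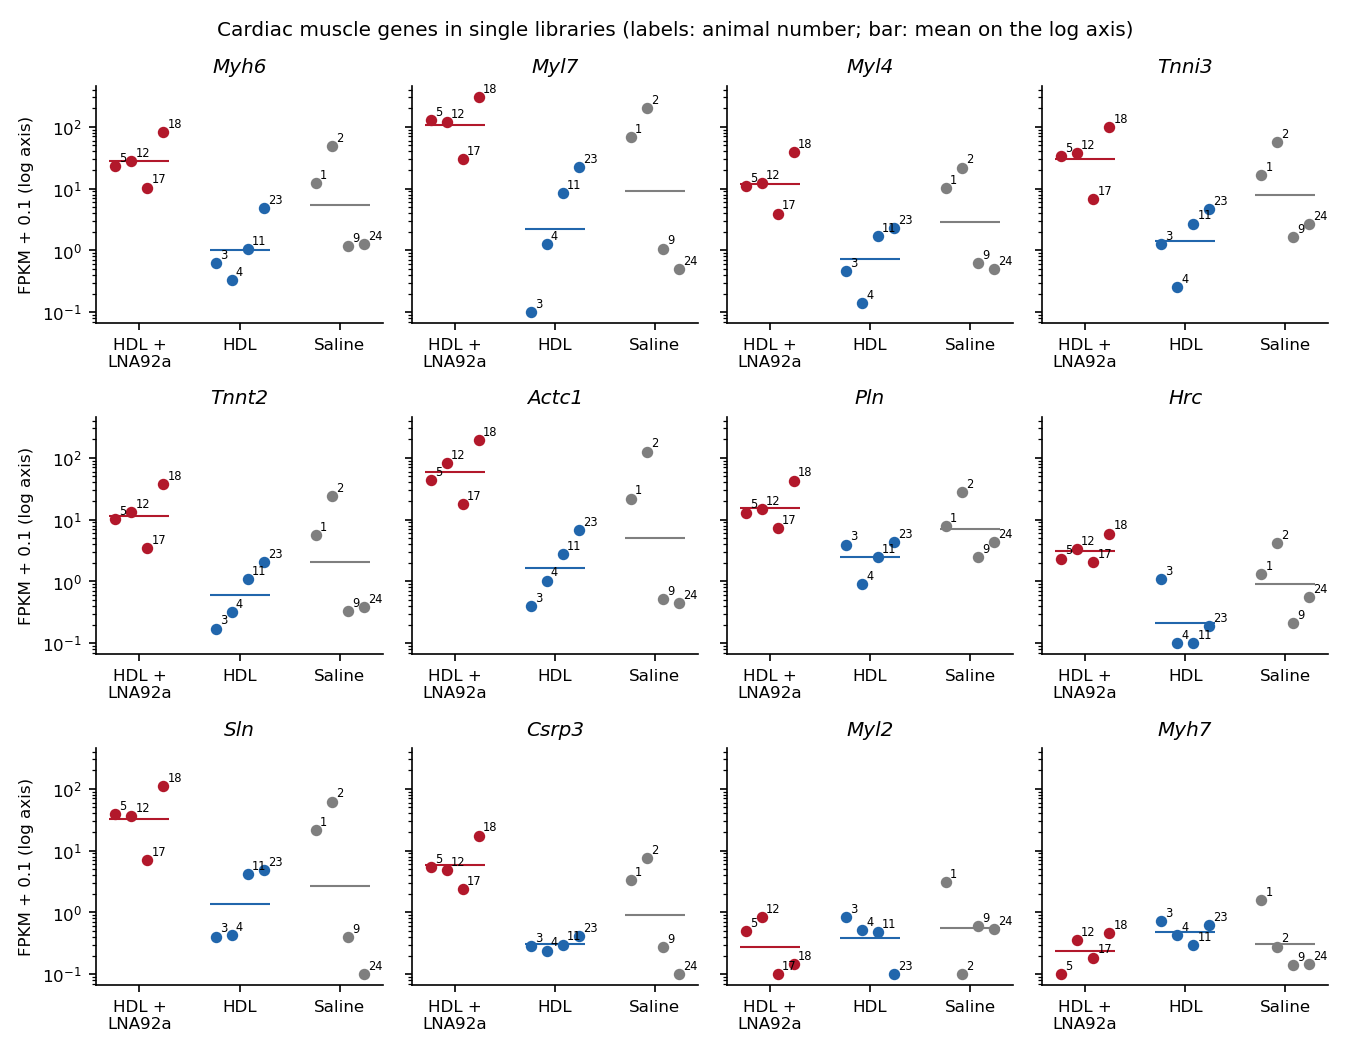
FPKM plus 0.1 on a log axis for 12 cardiac muscle genes, with 1 point per library, the animal number beside it and a bar at the group's mean on that axis, for HDL + LNA92a, HDL and saline. In 10 of the genes all 4 HDL + LNA92a points lie above all 4 HDL points, and saline animals 1 and 2 lie above saline animals 9 and 24; Myl2 and Myh7 are low in HDL + LNA92a and HDL.

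The cardiac signal was unevenly spread over libraries. HDL + LNA92a 18 was the highest of the 8 libraries in 38 of the 48 genes and the highest of all 20 in 30. The lowest of the 8 was HDL 4 in 15 genes, HDL 3 in 13 and HDL 11 in 13. Without HDL + LNA92a 18, 19 of the 48 genes were higher at p under 0.05, and over all alternatives the count ran between 19 and 37, with 0 lower in each. Among saline libraries, animals 1 and 2 lay within the HDL + LNA92a range of the 3 measures that follow and animals 9 and 24 within the HDL range. Tnni3 had 16.4, 57.0, 1.56 and 2.57 FPKM and Myh6 12.3, 48.1, 1.06 and 1.16 FPKM in saline animals 1, 2, 9 and 24. Summed thick filament genes came to 105, 303, 7.49 and 4.97 FPKM in those animals. HDL + LNA92a minus saline, which shares the HDL + LNA92a libraries with the comparison described here, gave 2.03 ± 0.98 for Tnni3 and 2.57 ± 1.23 for Myh6. In bulk RNA, fewer cells of a type and less RNA per cell cannot be told apart.

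Of 14 skeletal muscle genes tested, 12 were higher in HDL + LNA92a and 1 had p under 0.05, with a median of 0.69 (-0.10 with the endothelial and fat covariates). That gene was Myl1, a fast muscle light chain, with 12.1, 28.8, 3.74 and 28.8 FPKM in HDL + LNA92a, against 3.12, 5.03, 1.17 and 2.46 in HDL (2.37 ± 1.09). HDL + LNA92a 17 lay within the HDL range for it.

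The other 4 leading higher genes were Pcp4l1, Fhl2, Gm15662 and Rn7s6. Pcp4l1, a small relative of the calmodulin regulator Pcp4 (chr1:171173262-171196268), had the smallest p of all genes, with 4.48, 4.99, 2.98 and 13.4 FPKM in HDL + LNA92a, against 1.23, 0.917, 1.16 and 1.21 in HDL (1.84 ± 0.43, limma adjusted p = 0.867). Its HDL values were tight, and all HDL + LNA92a values lay above them. Fhl2, a LIM protein of heart and other muscle, had 3.00, 6.26, 1.78 and 11.4 FPKM in HDL + LNA92a, against 0.683, 0.928, 1.75 and 0.201 in HDL (1.95 ± 0.49). Gm15662, which had no match in GENCODE M21, had 149, 143, 273 and 151 FPKM in HDL + LNA92a, against 64.1, 71.5, 103 and 65.2 in HDL (1.46 ± 0.38). Rn7s6, a 7S RNA gene with many near-identical copies whose reads could be split between them, had 88.5, 68.6, 73.7 and 58.3 FPKM in HDL + LNA92a, against 46.7, 35.0, 45.0 and 32.8 in HDL (1.13 ± 0.30). The groups did not overlap in any of the 3, and animal 18 was highest in Fhl2, animal 17 in Gm15662 and animal 5 in Rn7s6.

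The reported targets of miR-92a-3p lay on both sides of 0. Of 25 listed genes 24 were tested (Cdh1 did not pass the filter), 9 were higher and 15 lower in HDL + LNA92a, and the median difference was -0.07 beside -0.06 over all genes. Klf2 had 31.0, 39.7, 56.8 and 122 FPKM in HDL + LNA92a, against 101, 39.6, 95.2 and 133 in HDL (-0.21 ± 0.46, limma adjusted p = 0.928). Klf4 had 22.3, 35.4, 27.6 and 63.5 FPKM in HDL + LNA92a, against 30.3, 36.7, 12.8 and 64.7 in HDL (0.55 ± 0.54). Itga5, a subunit of the fibronectin receptor, had 3.57, 11.4, 26.9 and 40.7 FPKM in HDL + LNA92a, against 91.1, 3.64, 12.0 and 89.7 in HDL (-0.33 ± 0.93). In all 3 the groups overlapped, and Itga5 was lowest in the 3 libraries with least endothelial RNA, HDL + LNA92a 5, HDL 4 and HDL + LNA92a 12.

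Further targets with a known endothelial role were mixed. In the 3′ UTRs searched, 18 of the 24 tested targets held the 8mer, and 20 held the 8mer or GTGCAAT without the A. Sirt1, Klf10 and Plpp3 held neither, and Socs5 and S1pr1 held GTGCAAT without the A. The differences were -0.06 ± 0.22 for Itgav, -0.03 ± 0.30 for the cytokine signalling suppressor Socs5, -0.04 ± 0.23 for the deacetylase Sirt1 and 0.01 ± 0.42 for Klf10. S1pr1, the main endothelial receptor for sphingosine 1-phosphate, had 9.87, 14.8, 49.3 and 83.7 FPKM in HDL + LNA92a, against 145, 9.02, 77.5 and 135 in HDL (-0.69 ± 0.86). Plpp3, a lipid phosphatase of quiescent endothelium, had 59.5, 79.5, 22.8 and 40.8 FPKM in HDL + LNA92a, against 32.7, 72.0, 14.4 and 48.1 in HDL (0.76 ± 0.44). Nox4, an oxidase that makes hydrogen peroxide, differed by 1.44 ± 0.90 and was highest in HDL 4. On the variance-stabilized scale the groups overlapped in each of these, while in FPKM all 4 HDL + LNA92a libraries lay below the HDL libraries in Sirt1 (4.72 to 6.51 in HDL + LNA92a, against 6.99 to 8.84 in HDL).

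Map2k4, a kinase that activates JNK and p38 and the holder of the paired sites printed above, was the 1 of 24 tested targets under p 0.05, and it was lower. Among all genes tested, 2.04% were lower at that level. Leaving out 1 library kept Map2k4 there in 7 of 8 fits. Map2k4 had 5.28, 7.58, 3.77 and 6.26 FPKM in HDL + LNA92a, against 11.5, 7.68, 11.6 and 11.6 in HDL (-0.45 ± 0.17, limma adjusted p = 0.867). The groups did not overlap, HDL 4 being the lowest of its group. Adding LNA92a to HDL + LNA489 gave 8.38, 11.8, 11.1 and 12.0 FPKM in animals 8, 10, 15 and 21, against 11.4, 11.1, 8.62 and 8.73 in HDL + LNA489 animals 7, 13, 14 and 19 (0.00 ± 0.17).

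**Figure D2:**
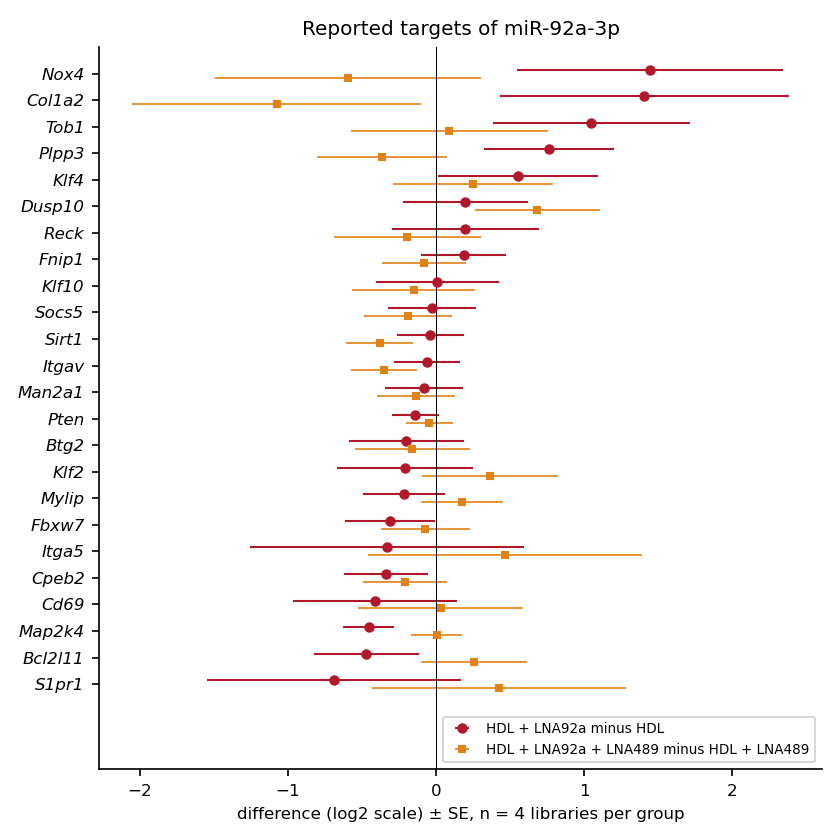
Differences on the log2 scale with SE for the 24 tested reported targets of miR-92a-3p, for HDL + LNA92a minus HDL (circles) and for HDL + LNA92a + LNA489 minus HDL + LNA489 (squares), 4 libraries per group. Map2k4 lies below 0 at -0.45 in the circles and at 0.00 in the squares, and Nox4 has the largest positive circle at 1.44.

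Genes were also grouped by sequence alone. Among 12923 tested coding genes with an annotated 3′ UTR, 359 (2.78%) held at least 1 GTGCAATA and 960 (7.43%) held at least 1 GTGCAAT, a match of the seed without the A, on the transcript's strand. Over all 20966 coding genes with a 3′ UTR the shares were 2.28% and 6.5%. Genes with the 8mer had a median difference of -0.08, and 150 of the 359 (41.8%) were above 0, while the 11963 genes with neither match had a median of -0.02 and 47.9% above 0. At p under 0.05, 0 of the 359 were higher and 6 lower, against shares of 1.69% higher and 1.56% lower among all genes with a 3′ UTR. Their 3′ UTRs were longer, with medians of 2498 bases with the 8mer and 1045 bases without a match. Among the longest 3′ UTRs (over 2595 bases) the medians were -0.13 for 170 genes with the 8mer and -0.07 for 2120 without a match, and among the shorter ones -0.06 for 189 and -0.01 for 9843. The 13 genes with at least 2 copies had a median of -0.15. The 267 genes with the matching 8mer of miR-489-3p, whose inhibitor neither group received, had a median of -0.04.

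The 6 genes with an 8mer that had the smallest p in each direction show the range. Lower in HDL + LNA92a, besides Map2k4, were Xylt2, an enzyme that starts proteoglycan chains (-0.45 ± 0.19), the SUMO ligase Pias4 (-0.55 ± 0.24), the transcription factor Mef2d (-0.49 ± 0.22), I830077J02Rik (-1.02 ± 0.47) and the chromatin repressor subunit Gatad2b (-0.35 ± 0.17), all at p under 0.05. Higher were Dkk3, a secreted relative of Wnt inhibitors (1.42 ± 0.68), the phosphatase Ptprd (1.27 ± 0.64), the glycogen phosphatase Epm2a (0.75 ± 0.38), the matrix protein Adamtsl1 (1.83 ± 0.95), the mitochondrial aminotransferase Bcat2 (1.20 ± 0.64) and the ubiquitin-conjugating enzyme Ube2w (0.41 ± 0.23), none at p under 0.05. In HDL, Dkk3, Ptprd, Epm2a, Adamtsl1 and Bcat2 were each highest in the fat-rich library HDL 4. Dkk3 had 11.8, 19.4, 6.12 and 12.8 FPKM in HDL + LNA92a, against 1.98, 20.6, 3.34 and 4.90 in HDL.

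**Figure D3:**
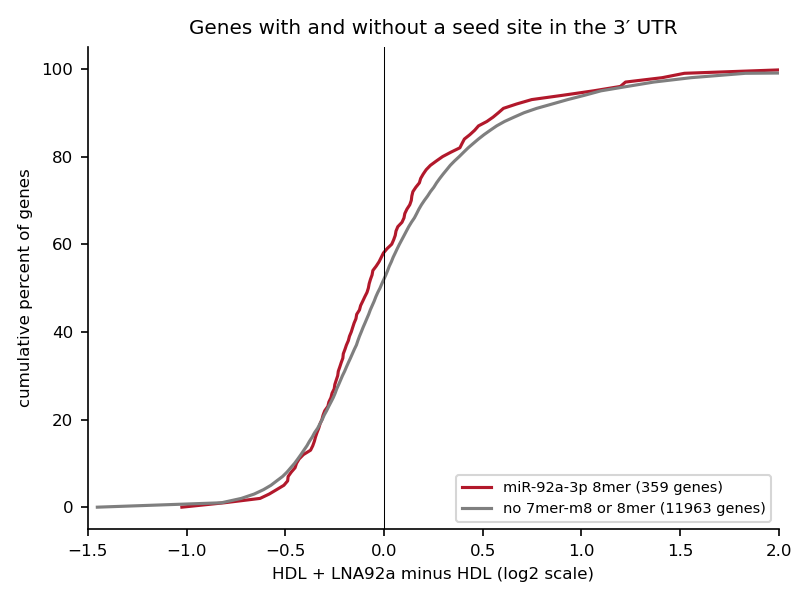
Cumulative percent of genes against the difference HDL + LNA92a minus HDL (log2 scale) for 359 genes with a miR-92a-3p 8mer in the 3′ UTR and 11963 genes with neither match. The curve of the genes with the 8mer lies to the left of the other around 0, with medians of -0.08 and -0.02.

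The host transcript of the microRNA was measured as well. Mir17hg had 0.974, 0.477, 0.863 and 1.7 FPKM in HDL + LNA92a, against 2.63, 0.693, 5.41 and 2.13 in HDL (-0.58 ± 0.46), with overlap through HDL 4. Mir92-1 was not analysed here. Of the microRNA machinery, 11 of 13 genes were lower in HDL + LNA92a (median -0.33), 2 of them at p under 0.05, beside 2.04% of all genes. These were Tarbp2, the partner of Dicer (1.00, 2.70, 1.40 and 1.78 FPKM in HDL + LNA92a, against 3.26, 2.14, 4.84 and 3.60 in HDL; -0.51 ± 0.22), and Cnot1, the scaffold of the deadenylase complex (7.28, 10.5, 7.75 and 9.07 FPKM in HDL + LNA92a, against 14.5, 10.4, 29.3 and 14.2 in HDL; -0.45 ± 0.20). HDL 11 was highest and HDL 4 lowest of the HDL libraries in both. With the endothelial and fat covariates the median of the list was -0.09, 5 of the 13 were higher and 0 were lower at p under 0.05.

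The leading lower genes were mostly weakly expressed, and several lie inside another gene. Their mean of at least 1 FPKM was taken over the 8 libraries compared, so a gene high in HDL alone could pass by it. Kdm4b alone among them averaged over 1 FPKM in HDL + LNA92a. Kdm4b, a demethylase of histone H3 lysine residues (chr17:56326062-56402870), was the most abundant of them with 4.29, 5.32, 5.12 and 5.45 FPKM in HDL + LNA92a, against 11.0, 6.75, 12.3 and 12.3 in HDL (-0.57 ± 0.17, limma adjusted p = 0.867). Prmt6, an arginine methyltransferase that acts on histones (chr3:110246109-110250998, overlapping C130013H08Rik on the other strand), had 0.513, 1.10, 0.924 and 0.759 FPKM in HDL + LNA92a, against 2.41, 1.56, 3.33 and 3.56 in HDL (-0.95 ± 0.28). Rhebl1, a small GTPase that can activate mTOR, had 0.399, 1.04, 0.893 and 0.799 FPKM in HDL + LNA92a, against 2.67, 2.79, 2.09 and 2.99 in HDL (-0.84 ± 0.23). In all 3 each HDL + LNA92a library was below each HDL library. Mir155hg, the host transcript of the inflammatory miR-155, had 0.060, 0.393, 0 and 0.120 FPKM in HDL + LNA92a, against 1.64, 0.263, 5.42 and 0.852 in HDL (-1.17 ± 0.37), overlapping through HDL 4 and highest in HDL 11, the library that also had the most RNA of the B cell gene Ms4a1.

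The other 8 lower genes are noncoding or poorly described, and their assignment is uncertain because the strand of counting was not given. Gm17151 lies antisense within Dot1l (chr10:80766859-80768987) and had 0.235, 0, 0 and 0 FPKM in HDL + LNA92a, against 3.53, 1.54, 5.52 and 2.70 in HDL (-1.16 ± 0.28). Gm20692 is antisense to Hdhd5 (-1.04 ± 0.29) and Gm27003 to Gabpb1 (-1.17 ± 0.36), and Gm20702 is a pseudogene within Trip11 (-1.14 ± 0.34). Gm44327 and Gm26393 are annotated as small RNAs within Ppp3ca and Morc2a (-1.11 ± 0.35 and -1.12 ± 0.36), Gm44567 lies within Lsm14a (-1.02 ± 0.32), and 4930518I15Rik is a coding gene model of unknown role (-0.86 ± 0.27). Their highest level in any HDL + LNA92a library was 1.31 FPKM.

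By class of gene, the share lower at p under 0.05 was larger in noncoding classes, though 203 of the 344 lower genes were coding. Of 1439 long noncoding genes, 62 (4.31%) were lower and 11 (0.764%) higher at p under 0.05, and of 763 unclassified transcripts awaiting evidence, 31 (4.06%) were lower and 0 higher. Of 13022 coding genes, 203 (1.56%) were lower and 221 (1.7%) higher. The medians were -0.20, -0.27 and -0.02 for the 3 classes. Of 398 small or structural RNA genes, 18 (4.52%) were lower and 7 (1.76%) higher (median -0.06). With the endothelial and fat covariates 6 of these were lower and 12 higher. Of 1037 pseudogenes, 26 (2.51%) were lower and 9 (0.868%) higher (median -0.05). Long noncoding genes took 2.37, 2.88, 3.71 and 3.37% of the reads in HDL + LNA92a, against 5.47, 2.28, 9.32 and 6.58% in HDL, so HDL 4 lay with the HDL + LNA92a libraries. Small and structural RNAs took 45.0, 16.8, 44.7 and 34.5% of the reads in HDL + LNA92a, against 18.1, 25.9, 10.1 and 11.9% in HDL. With the endothelial and fat covariates, 24 long noncoding genes were lower and 13 higher (median -0.03), and 13 unclassified transcripts were lower and 9 higher (median 0.01). The lower count of long noncoding genes was 33 without HDL 11, 39 without HDL + LNA92a 12 and 139 without HDL 4, and that of unclassified transcripts was 17, 19 and 103. It was also 19 for the unclassified without HDL 3 or HDL 23, 20 without HDL + LNA92a 5 and 50 without HDL + LNA92a 17.

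All 15 tested histone lysine demethylases were lower in HDL + LNA92a, with a median of -0.30, where 44.2% of all genes were higher. Besides Kdm4b, Kdm2a was under p 0.05, with 4.54, 6.61, 6.66 and 6.54 FPKM in HDL + LNA92a, against 11.8, 6.31, 21.9 and 12.4 in HDL (-0.55 ± 0.23), overlapping through HDL 4. The median was -0.18 without HDL 11 and -0.14 with the endothelial and fat covariates, where 1 of the 15 was higher. Kdm2a missed p 0.05 in that fit and Kdm4b did not.

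Cell type markers differed widely among libraries of the same group. Pecam1, an adhesion protein of all endothelium, had 26.4, 38.3, 382 and 488 FPKM in HDL + LNA92a, against 633, 10.8, 120 and 1008 in HDL (-0.11 ± 1.32). Cdh5, the endothelial cadherin, differed by -0.65 ± 1.07 and Vwf, the von Willebrand factor, by -0.20 ± 1.40. Of 20 endothelial genes 18 were lower in HDL + LNA92a and 0 had p under 0.05 (median -0.32). The median turned to 0.21 without HDL + LNA92a 5, 0.15 without HDL 3 and 0.12 without HDL 23, and was -1.13 without HDL 4. It was 0.21, with 16 of 20 higher, without HDL 4 and HDL + LNA92a 5 and 12. Those libraries were left out because their fat list mean exceeded their endothelial list mean. The choice thus used the same endothelial genes and removed the libraries lowest in them, so this median is no separate test. The summed level of the list ran from 96.2 to 1278 FPKM in HDL + LNA92a and from 106 to 2774 in HDL. Pecam1 was thus highest in HDL + LNA92a 17 and 18 and in HDL 3 and 23, intermediate in HDL 11, and lowest in HDL + LNA92a 5 and 12 and in HDL 4, though all libraries are labelled endothelium. Kdr, a growth factor receptor of the list, was an exception with 6.90, 8.14, 7.02 and 8.50 FPKM in HDL + LNA92a, against 3.04, 13.0, 3.57 and 3.24 in HDL (1.08 ± 0.57).

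Fat genes were highest in HDL + LNA92a 12, HDL 4 and HDL + LNA92a 5. Adipoq, the fat hormone adiponectin, had 183, 373, 65.7 and 60.0 FPKM in HDL + LNA92a, against 6.68, 266, 26.5 and 30.2 in HDL (2.19 ± 1.42), and Ucp1, which makes brown fat mitochondria produce heat, had 676, 1229, 170 and 120 FPKM in HDL + LNA92a, against 16.9, 912, 57.2 and 115 in HDL (2.23 ± 1.52). All 12 white and general fat genes (median 1.82) and 10 of 11 brown fat genes (1.98) were higher in HDL + LNA92a, with 0 at p under 0.05 in either list. In the brown list Dio2, which activates thyroid hormone (2.00 ± 1.01), came nearest, followed by Cox8b of brown fat mitochondria (2.44 ± 1.26). In the white list it was Fabp4, a lipid carrier of fat and capillary cells (2.03 ± 1.11). Leaving aside HDL 4, every HDL + LNA92a library had more Adipoq and Ucp1 RNA than the HDL libraries.

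Nuclear genes of oxidative phosphorylation were highest in the same libraries as the fat genes. All 24 were higher in HDL + LNA92a (median 1.30), 0 at p under 0.05, and their summed level was 3415, 4304, 1287 and 1614 FPKM in HDL + LNA92a, against 655, 4810, 958 and 962 in HDL. Genes of fatty acid oxidation were higher in 19 of 20 (median 1.42) and the mitochondrially encoded genes in 13 of 13 (1.19). Of the last, mt-Nd4l, a complex I subunit, had p under 0.05 (3.48, 5.30, 5.28 and 5.51 FPKM in HDL + LNA92a, against 0, 1.48, 5.69 and 0.257 in HDL; 0.96 ± 0.34), but its counts overlap those of mt-Nd4. With the endothelial and fat list means of each library as covariates the medians came to 0.22, -0.12 and 0.19, while the median of the 48 cardiac genes was 1.20 with 20 at p under 0.05.

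**Figure D4:**
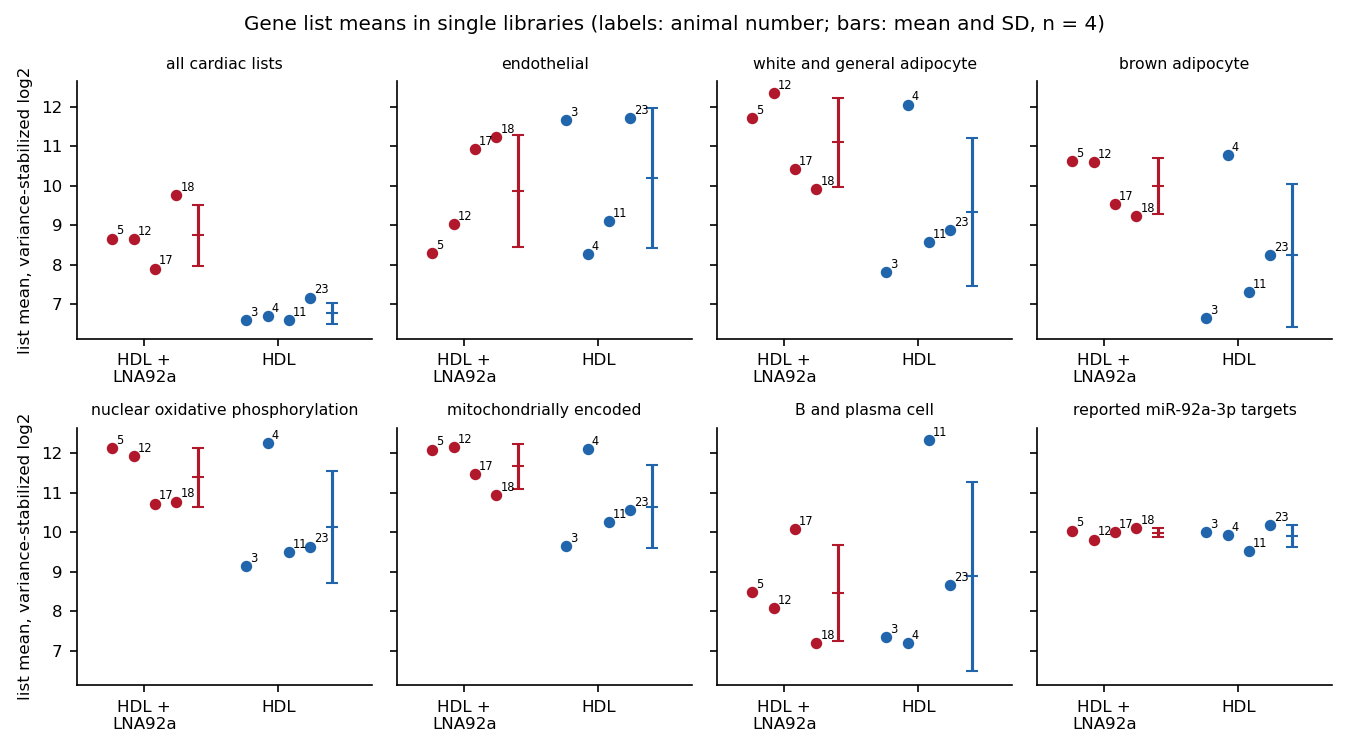
Mean variance-stabilized log2 level of 8 gene lists in each library, with the animal number beside each point and the group's mean and SD (n = 4) to its right, for HDL + LNA92a and HDL. The cardiac list is the one in which the groups do not overlap, with HDL + LNA92a between 7.90 and 9.77 and HDL between 6.59 and 7.16; HDL 4 lies with the HDL + LNA92a libraries in the fat and mitochondrial lists.

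In the following lists of other cell types the groups overlapped in every gene on the variance-stabilized scale. All 12 fibroblast genes were higher in HDL + LNA92a (median 1.49) and 10 of 11 smooth muscle genes (0.32), 0 in either list at p under 0.05. With the endothelial and fat covariates these medians were -0.15 and -0.10. Myh11, the smooth muscle myosin, had 3.63, 14.7, 8.56 and 8.10 FPKM in HDL + LNA92a, against 9.81, 4.56, 6.52 and 2.45 in HDL (0.96 ± 0.70). Lyz2, lysozyme of macrophages, had 478, 788, 418 and 1430 FPKM in HDL + LNA92a, against 2059, 501, 1004 and 1301 in HDL (-0.22 ± 0.66), and foam cell genes had a median of -0.55, which came to 0.0028 without HDL 3. All 11 T and NK cell genes (-0.52) and 11 of 12 B cell genes (-0.41) were lower in HDL + LNA92a. Ms4a1, the B cell surface protein CD20, had 2.45, 2.61, 8.21 and 0.626 FPKM in HDL + LNA92a, against 0.877, 0.620, 61.1 and 4.66 in HDL, and without HDL 11 the medians of the T and B cell lists came to 0.05 and 0.65. Of 6 neutrophil genes 3 were higher and 3 lower in HDL + LNA92a (median -0.11, and 0.15 without HDL 3). Of these Cxcr2, a chemokine receptor (-1.12 ± 0.50), and Retnlg (-0.78 ± 0.36) were lower at p under 0.05, beside 2.04% of all genes, while Mmp9, a matrix protease, differed by 1.16 ± 0.90. Cxcr2 and Retnlg each had 0 FPKM in at least 1 of the 8 libraries. Leaving out 1 library kept Cxcr2 at p under 0.05 in 3 of 8 fits and Retnlg in 2. With the endothelial and fat covariates Cxcr2 missed that level (-0.67 ± 0.48) and Retnlg did not (-0.88 ± 0.41). All 11 red cell and platelet genes were higher (median 0.89, and 0.16 without HDL + LNA92a 18). Of these 1, the platelet chemokine Pf4, was at p under 0.05 (1.57 ± 0.74), beside 1.49% of all genes higher at that level. Leaving out 1 library kept Pf4 there in 3 of 8 fits, and with the endothelial and fat covariates it missed that level (0.62 ± 0.31).

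Lists of endothelial and lipid pathways had few genes at p under 0.05. Of 16 adhesion and chemokine genes 15 were lower in HDL + LNA92a, 0 at p under 0.05 (median -0.37, and 0.02 without HDL 3), with the cytokine Tnf at -0.94 ± 0.54 and highest in HDL 11. Flow-responsive quiescence genes had a median of 0.16 (-0.08 without HDL 11) and 0 at p under 0.05. Of 10 genes of the sphingosine 1-phosphate axis 6 were lower (median -0.12), 1 at p under 0.05, beside 2.04% of all genes. That gene, Apom, which carries sphingosine 1-phosphate on HDL, had 0.595, 0.333, 0.163 and 0 FPKM in HDL + LNA92a, against 1.76, 0.682, 1.80 and 2.33 in HDL (-0.84 ± 0.33). Leaving out 1 library kept Apom at that level in 6 of 8 fits, and with the endothelial and fat covariates it missed that level (-0.48 ± 0.32). Of 25 angiogenesis ligands and receptors 16 were lower (median -0.18, and 0.18 without HDL 3). At p under 0.05, 0 were lower and 1 gene was higher, beside 1.49% of all genes. This was Pgf, a growth factor of the VEGF family, which had 2.23, 1.56, 0.261 and 0.653 FPKM in HDL + LNA92a, against 0.409, 0.238, 0.085 and 0.193 in HDL (0.97 ± 0.38). Lists of HDL receptors and cholesterol efflux (-0.19), cholesterol synthesis (0.11), integrins (-0.14), extracellular matrix (0.13), interferon-stimulated genes (-0.18), endosomal nucleic acid sensing (-0.16), TGF-beta signalling (-0.03), cell cycle (-0.22), immediate early genes (0.09), circadian clock (0.11) and the unfolded protein response (-0.01) had 0 genes at p under 0.05. Apart from those of HDL receptors and cholesterol efflux and of endosomal nucleic acid sensing, each of these medians changed sign when 1 of the libraries was left out.

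The study adds LNA92a a second time, to HDL + LNA489, in 8 other libraries. In HDL + LNA92a + LNA489 minus HDL + LNA489, limma called 0 genes (smallest adjusted p 1.00), and 277 (1.64%) had an unadjusted p under 0.05, of which 147 (0.873%) were higher and 130 (0.772%) lower. Without HDL + LNA489 13 the count was 906. Groups did not overlap in 106 genes (0.629%) that were higher and 120 (0.712%) that were lower. Of the 251 genes higher with LNA92a over HDL, 58 (23.1%) were above 0 there, against 50.1% of all genes, 0 were higher at p under 0.05 and 11 were lower. Of the 344 lower genes, 158 (45.9%) were below 0 there, 3 of them at p under 0.05, and 9 were higher at that level. The 3 were Gm45464, the T cell receptor segment Trbv31 and Gm4924. Across the 16848 genes the differences in the 2 settings had a Pearson r of -0.352 and a Spearman rho of -0.250, a description over genes that share libraries and are not independent.

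The cardiac genes ran in opposite directions in the 2 settings, and so did other lists. In the second setting all 14 skeletal muscle genes were lower (median -0.90). Of 12 fibroblast and 12 white and general fat genes, 11 each were lower there (-0.75 and -0.42). Endothelial genes were higher there in 19 of 20 (0.64). Smooth muscle medians were above 0 in both settings (0.32 and 0.41), and B cell medians below 0 in both (-0.41 and -0.55). Myh6 had 2.40, 8.17, 1.54 and 0.497 FPKM in HDL + LNA92a + LNA489, against 22.1, 2.37, 0.766 and 34.9 in HDL + LNA489 (-1.60 ± 1.23). Tnni3 had 4.68, 22.4, 3.84 and 1.11 FPKM in HDL + LNA92a + LNA489, against 14.6, 4.65, 4.25 and 25.2 in HDL + LNA489 (-0.87 ± 0.98). The groups overlapped in both genes. Of the 48 cardiac genes 44 were lower there (median -0.85), 1 at p under 0.05 (Myom1). Myom1 had 1.62, 2.39, 2.635 and 1.56 FPKM in HDL + LNA92a + LNA489, against 3.42, 2.85, 12.4 and 3.01 in HDL + LNA489. HDL + LNA489 14, with the most Myom1 RNA, was the highest of all 20 libraries in 9 of the 48 cardiac genes. Its summed skeletal muscle genes came to 1787 FPKM, against 310, 7.98 and 101 in HDL + LNA489 animals 7, 13 and 19. The difference between the 2 differences was called in 0 genes (smallest adjusted p 0.930), and 530 (3.15%) had an unadjusted p under 0.05, 267 (1.58%) of them positive, with 32 of the 48 cardiac genes among them. That count for all genes came to 1754 without HDL 4, 1359 without HDL + LNA489 13 and 307 without HDL + LNA92a + LNA489 21.

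The genes with the smallest p for that difference were Hrc (4.00 ± 0.91), Pcp4l1 (2.63 ± 0.60) and Mlf1, which binds 14-3-3 proteins (3.31 ± 0.85), on the higher side, and Akirin1-ps, a pseudogene within Appbp2 (-1.53 ± 0.35), Gm17151 (-1.63 ± 0.40) and Prmt6 (-1.63 ± 0.40) on the lower. Mlf1 differed by 1.73 ± 0.60 with LNA92a over HDL and by -1.58 ± 0.60 over HDL + LNA489, and Akirin1-ps by -0.74 ± 0.25 and 0.78 ± 0.25. Prmt6 had 2.34, 2.52, 2.35 and 2.65 FPKM in HDL + LNA92a + LNA489, against 0.380, 1.86, 2.10 and 1.29 in HDL + LNA489 (0.67 ± 0.28), the opposite of its values with HDL. Mir155hg likewise had 0.632, 0.915, 0.284 and 1.42 FPKM in HDL + LNA92a + LNA489, against 0, 0.591, 0 and 0 in HDL + LNA489 (0.94 ± 0.37).

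The leading genes of the second setting were others. The 5 with the smallest p on the higher side were Elp6, a subunit of the Elongator complex (1.30 ± 0.36), the methyltransferase Eef2kmt (0.90 ± 0.26), Mir99a within its host (0.96 ± 0.28), Gm23468 within Prmt9 (0.90 ± 0.27) and the pseudogene Gm10288 (0.80 ± 0.25). On the lower side they were the monocarboxylate carrier family member Slc16a4 (-0.91 ± 0.23), the DNA repair factor Nhej1 (-1.21 ± 0.33), Gm45047 within Eef2k (-1.15 ± 0.33), Gm44982 within Fgfr2 (-1.0 ± 0.29) and Fam188b (-0.85 ± 0.26). With LNA92a over HDL these 10 genes differed by between -0.40 and 0.20.

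The reported targets and the genes with sites were set out in the same way for the second setting. The 24 reported targets had a median of -0.08 with 10 higher and 14 lower, and the 359 genes with an 8mer had a median of -0.03 beside -0.01 without a match. Against saline, which shares the HDL + LNA92a libraries, HDL + LNA92a had medians of -0.03 for the reported targets and 0.03 for the genes with an 8mer, beside 0.03 without a match.

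**Figure D5:**
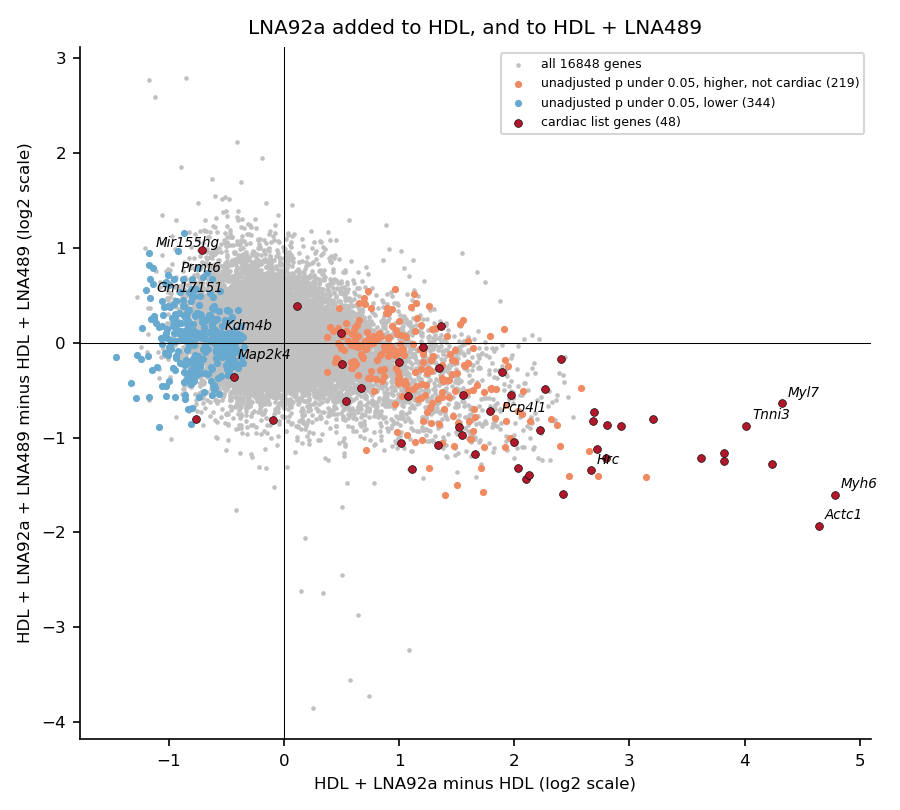
Difference made by LNA92a over HDL (horizontal axis) and over HDL + LNA489 (vertical axis) on the log2 scale, 1 point per gene for 16848 genes, with genes at an unadjusted p under 0.05 in the first setting and 48 cardiac genes coloured. The cardiac genes reach 4.78 to the right and lie below 0 on the vertical axis in 44 of 48, and the lower genes spread to both sides of 0 on the vertical axis.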

How the data were processed

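The members, gene lists and the rule for naming genes were chosen with earlier results of these data known. The authors deposited 2 tables, per the file headers, one of variance-stabilized values on a log2 scale (20442 genes) and one of FPKM (32081 genes). Per the submitters' processing notes, which list names with no role, DESeq2 1.18.1, featureCounts 1.15.29, STAR 2.5.3a, cutadapt 1.16 and FastQC were used with the build GRCm38.p5. Whether counting used strand, which annotation it used and how it treated reads with several matches are not given in the sources used here.

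Differences were fitted on the deposited log2 values with limma 3.58.1 in R 4.3.3, as 5 group means over all 20 libraries (15 residual degrees of freedom, moderated variances with a mean trend, 2-sided). The 16848 genes with a mean FPKM of at least 0.5 were tested, and a call needs an adjusted p (Benjamini-Hochberg) under 0.05. The contrasts were HDL + LNA92a minus HDL, HDL + LNA92a + LNA489 minus HDL + LNA489, their difference, and HDL + LNA92a minus saline. The fit was tested on simulated data. Each animal number occurs once, so replicates are separate mice, and the labels give no batch.

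Whole reads were recovered from the deposited FPKM and gene lengths, which gave the depth and a voom alternative. They lay within 0.1 of a whole number for 100% of values under 1000 reads in genes no longer than 3000 bases. Library measures were compared by exact permutation with SciPy 1.17.1. No set test was run, and 42 lists (591 genes, 545 tested) are described by counts and medians.

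Named are the 12 genes each way with the smallest p and a mean of at least 1 FPKM in the compared libraries (5 each way for the second setting, 3 for the difference), cardiac list members, up to 4 genes of other lists by p, the 6 genes each way with an 8mer, and fixed genes. Seed matches were sought in the 3′ UTR of the longest coding transcript of GENCODE M21, to which 31903 gene identifiers matched without their version and 16803 of those tested. MicroRNA sequences are from RefSeq (GRCm38.p6). Alternatives were the scale, filter, model, weights, centring, 2 covariates and leaving out each library. Leaving out HDL 4 and HDL + LNA92a 5 and 12, whose fat list mean exceeds the endothelial one, was chosen after seeing the data.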

Additional observations from a re-analysis of the deposited data

Results flagged for a closer look

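In 20 of 288 sets of 4 libraries, 1 library lay far from the other 3 by Dixon’s test of the gap at the 95% level. Chance gives about 1 in 20 such sets where levels are not tied. Some sets below had tied levels, so the total of 20 cannot be set against that rate. Levels here are on the variance-stabilized log2 scale.

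In HDL + LNA92a, animal 18 was far above the others in Myom1 (9.9809) and far below in Epm2a (7.248). Animal 12 was highest in Gm44327 (4.5124) and Gm26393 (4.7329), lowest in Kdr (10.119), and had the most assigned reads (17.776 M). Animal 5 was highest in Gm17151 (4.6618) and Retnlg (4.847) and lowest in the vascular smooth muscle list mean (7.5932). Animal 17 was highest in Gm20702 (4.644) and lowest in Map2k4 (8.6354). The 4 weak genes Gm17151, Gm20702, Gm44327 and Gm26393 were at 0 FPKM in the other HDL + LNA92a libraries. Their flags rest on 1, 1, 1 and 3 reads. In them and in Retnlg the other levels were equal, so any higher level in 1 library gave a flag.

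In HDL, animal 23 was highest in Csrp3 (5.2871), in Gm44327 (5.792) and in the mean of all cardiac lists (7.1649), and animal 3 was lowest in Tnnc1 (4.5556). Animal 4 was highest in Kdr (10.97) and in nuclear oxidative phosphorylation (12.255). Animal 11 was highest in Cnot1 (12.536) and lowest in Socs5 (8.5131) and in the immediate early list mean (8.2176).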

How the results depend on the processing

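The count of genes called by limma at an adjusted p under 0.05 was 0 under every alternative, so only unadjusted counts could move. For HDL + LNA92a against HDL (595) they were 2201 on log2(FPKM + 0.1), 2213 on log2(FPKM + 1), 3208 with library weights, 334 with the endothelial and fat list means as covariates, and 325 to 2860 leaving out 1 library. On log2(FPKM + 0.1) 2129 of the 2201 were lower in HDL + LNA92a, and median-centring gave 193 higher and 507 lower. For HDL + LNA92a + LNA489 against HDL + LNA489 (277) they were 758 with weights, 599 with covariates and 197 to 906 leaving out 1 library. For the difference of both (530) they were 1300, 1262 and 2205 on the 2 FPKM scales and with weights, and 307 to 1754 leaving out 1 library. Of the cardiac genes 32 had p under 0.05, 20 with covariates, 23 without HDL 4 and HDL + LNA92a 5 and 12, and 19 to 35 leaving out 1 library. Named genes whose difference changed sign had p over 0.05 in the reported fit, and the cause was not tested. With weights these were Myl2 (0.062), Sirt1 (0.030), Ms4a1 (0.27) and Klf10 (-0.21). With covariates they were Nox4 (-0.039), Itga5 (0.12), Vwf (0.48), Pecam1 (0.47), Adipoq (-0.084), Ms4a1 (0.64), Itgav (0.053), Ucp1 (-0.15), Klf10 (-0.39), Klf2 (0.059) and Lyz2 (0.40). Vwf and Pecam1 are members of the endothelial list and Adipoq of the fat list whose means were the covariates. Each was thus fitted on a mean that contains it, and its change of sign is no separate test. Without those 3 libraries they were Itga5 (0.083), Vwf (0.42), Sirt1 (0.0065), Pecam1 (0.60), Cdh5 (0.19) and Klf2 (0.19). Vwf, Pecam1 and Cdh5 are in the endothelial list by which those libraries were chosen. Socs5 (0.018) and Klf10 (-0.0013) changed sign with voom, and Klf10 also on both FPKM scales (-0.41 and -0.40) and centred (-0.071). Leaving out 1 library gave -0.40 to 0.17 for Myl2, -1.11 to 0.27 for Itga5, -1.48 to 0.65 for Vwf, -0.18 to 0.10 for Sirt1, -1.32 to 0.72 for Pecam1, -0.85 to 0.99 for Ms4a1, -0.20 to 0.019 for Itgav, -1.37 to 0.039 for Cdh5, -0.18 to 0.039 for Socs5, -0.36 to 0.27 for Klf10, -0.57 to 0.042 for Klf2 and -0.54 to 0.085 for Lyz2. No paired analysis was possible because each animal number occurs in 1 group. The 4 libraries a group and a median SE of 0.36 limit what could be called.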
